A study of Mus musculus with 6 samples.

Results

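The enzymes that break down superoxide and peroxides were read in mouse erythroid cells given siRNA against Foxo3: catalase (Cat), the superoxide dismutases Sod1 and Sod2, the peroxiredoxins Prdx1, Prdx2, Prdx3, Prdx5 and Prdx6, and the glutathione peroxidases Gpx1 and Gpx4. They were taken as every non-control probe whose array gene name is one of these 10 symbols. This gave 16 probes on 25 spots, of 55681 non-control probes with 34797 gene names on the array. All 16 passed the filter on dim probes, and all 96 of their probe-by-array signals were well above background.

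The cells were G1E-ER-GATA-1, mouse erythroid precursors without a working Gata1 gene of their own. They carry a fusion of GATA-1 with the ligand-binding domain of the estrogen receptor. Estradiol then turns GATA-1 on and the cells start to mature toward red cells. Of the 6 samples, 3 received Foxo3 siRNA and 3 received nontargeting siRNA. Both groups were electroporated with their siRNA at 0 h and again at 24 h, both received estradiol at 24 h, and total RNA was taken from both at 48 h, so every sample had GATA-1 switched on by the hormone. The medium of both groups held erythropoietin at 2 U/mL, Kit ligand from conditioned medium, and puromycin. No sample without estradiol was used here, and the line is 1 engineered cell model. Each RNA was labelled with Cy3 and hybridised alone to a 1-colour Agilent array with 60-base probes. Whether the replicates were separate cultures is not stated in the labels. The p-values therefore measure no more than the spread between these 6 samples, which may be technical.

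Superoxide dismutases turn superoxide into hydrogen peroxide, Sod1 mainly in the cytosol and Sod2 in mitochondria. Catalase splits hydrogen peroxide directly, while glutathione peroxidases reduce peroxides with glutathione and peroxiredoxins do so mostly with thioredoxin. Maturing red cells make much heme and hemoglobin, which can release superoxide and peroxide, and Foxo3 is known in erythroid cells as an inducer of antioxidant genes.

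The sequences of 3 probes are shown because they read Gpx1 and Prdx5, the genes that passed the test, and Cat, whose probes differed. They are written 5′ to 3′ as on the array, in lower case throughout, and every probe position comes from the array design, in mouse build mm9; an exon annotation of that build was not used here. The Gpx1 probe A_52_P684378 lies on the plus strand at chr9:108242276-108242335. The Prdx5 probe A_55_P1979463 lies on the minus strand at chr19:6981371-6981430. The Cat probe A_51_P191611 lies on the minus strand and its 60 bases span 3343 bases of the genome, chr2:103297086-103300428.
Gpx1 A_52_P684378: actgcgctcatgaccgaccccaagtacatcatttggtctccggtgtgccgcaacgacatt
Prdx5 A_55_P1979463: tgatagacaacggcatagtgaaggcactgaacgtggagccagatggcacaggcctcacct
Cat A_51_P191611: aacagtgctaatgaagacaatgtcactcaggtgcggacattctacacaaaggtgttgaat

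The other Cat probe, A_55_P2148873 (chr2:103294487-103294546, minus strand), holds a run of 8 CA units. Bases 26 to 55 of it are shown with the 16 bases of that run in capitals, because a repeat of this kind occurs in many places of a genome. Whether other transcripts bind to it was not tested.
Cat A_55_P2148873: acacatacCACACACACACACACAtgcaat

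The siRNA target was read first. Foxo3, a forkhead transcription factor, had scaled log2 signals on the Foxo3 siRNA arrays of −0.47, −1.29 and −1.89, against 1.20, 1.28 and 1.12 on the nontargeting siRNA arrays, by probe A_55_P2150896. Scaled log2 signal means log2 of the background-subtracted intensity minus the 75th percentile of the same array, so 0 is that percentile. With 3 arrays per group it fell by 2.42 log2 units (SE 0.337, limma adjusted p = 0.00519). On the array of 1 Foxo3 siRNA sample the probe was not well above background. The difference was −1.67 within slide row 1 (limma adjusted p = 0.0326) and lay between −2.79 and −1.67 in 16 alternatives. It was called in 15 of them, and lost its call with no filter on dim probes (limma adjusted p = 0.0614). The other Foxo3 probe, A_55_P2129309, gave a difference of 0.26 (limma adjusted p = 0.243), so the check of the knockdown rests on 1 probe.

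Of 27016 probes tested, 3318 were higher and 3515 lower at a limma adjusted p under 0.05, and the median log2 difference of all of them was −0.15. Spots well above background numbered 20343 to 37532 with Foxo3 siRNA, against 31611 to 33513 with nontargeting siRNA, and no spot was saturated. Foxo3 siRNA replicate 3 stood apart: 50.2% of its spots held a surrogate value and its lowest signal was 24.1, against 3.48 to 4.29 on the others. Row 1 of the slide held Foxo3 siRNA replicate 1 and all 3 nontargeting arrays, and row 2 held only Foxo3 siRNA replicates 2 and 3. All 12 erythroid markers were above background on all 6 arrays, but Hbb-b1 and Hbb-bt were read by the same probe. The summed linear signal of the erythroid markers, relative to the 75th percentile, was 4470 to 6010 with Foxo3 siRNA, against 6530 to 7150 with nontargeting siRNA. Megakaryocyte markers summed to 37.8 to 67.8 with Foxo3 siRNA, against 37.7 to 57.4 with nontargeting siRNA. Within that sum, Itga2b (1.27, limma adjusted p = 0.00183) and Gp1ba (0.59, limma adjusted p = 0.0209) were called higher, while Pf4 and Gp9 gave −0.15 and −0.54 and were not called. Myeloid markers summed to 66.9 to 73.0 with Foxo3 siRNA, against 72.2 to 115 with nontargeting siRNA, and lymphoid markers to 3.67 to 4.53 with Foxo3 siRNA, against 4.83 to 6.40 with nontargeting siRNA. Mast cell markers summed to 0.628 to 1.33 with Foxo3 siRNA, against 0.639 to 0.965 with nontargeting siRNA. Mpo, Lyz2, S100a8, S100a9, Col1a1, Pdgfra and Dcn were above background on no array. In contrast, myeloid Elane, Csf1r and Itgam, lymphoid Cd3e and mast cell Tpsb2 were above it on all 6 arrays, each by at least 1 probe. The part of these marker shifts in the results that follow was not tested, and in bulk RNA fewer cells of a type cannot be told apart from less RNA per cell.

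Among the 10 enzymes, mRNA of Prdx5 was higher and mRNA of Gpx1 was lower with Foxo3 siRNA, and the other 8 genes did not pass the test. Prdx5 reduces peroxides in mitochondria, peroxisomes and the cytosol, and Gpx1 is the abundant selenium-containing glutathione peroxidase of red cells. The changes were modest: the 16 differences ran between −0.48 and 0.63 on the log2 scale, and none reached 1. In all, 3 of 16 probes (18.8%) were called at a limma adjusted p under 0.05, 2 higher and 1 lower, against 25.3% of all tested probes (12.3% higher and 13.0% lower). At an unadjusted p under 0.05 there were 5, against 42.8% of all tested probes. Groups whose values did not overlap were found for 8 of the 16 probes, 6 higher and 2 lower, against 49.6% of all probes with values on all arrays (21.9% higher and 27.7% lower). The share called was below that of all probes, but with 16 probes, some of the same gene, 1 probe moves it by several percent. This difference in share was not tested. The share without overlap was close to that of all probes.

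**Figure D1:**
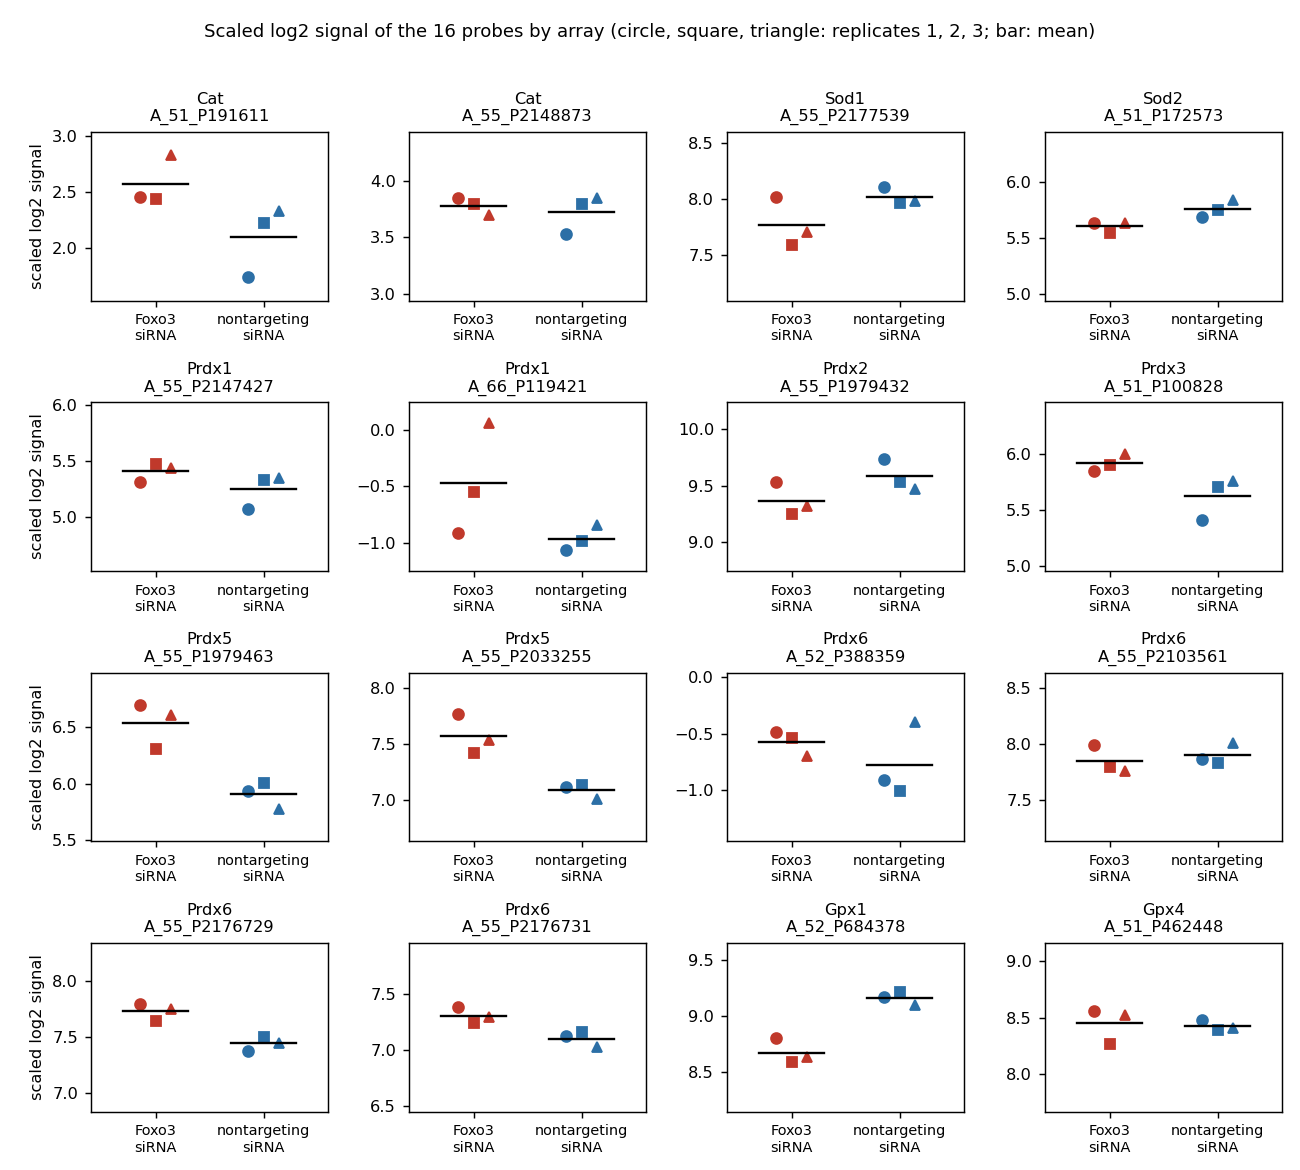
Scaled log2 signal (y axis) of each of the 16 probes, with Foxo3 siRNA left and nontargeting siRNA right in every panel; points are arrays and bars are group means. Each panel spans the same number of log2 units around its own centre. The Gpx1 points with Foxo3 siRNA lie between 8.59 and 8.80, below the nontargeting points at 9.09 to 9.21, while both Prdx5 probes show the opposite order.

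The median of the whole group was positive under each scaling tried, and its size moved with that of all probes. The median difference of the 16 probes was 0.18, with 11 positive and 5 negative values, against −0.15 for all tested probes. With each array scaled to its median the member median was 0.48 and that of all probes 0.15. With scaling on the spike-in controls, chosen after seeing the data, they were 0.53 and 0.20. With 3 arrays per group, the 95% intervals of the 16 differences extended 0.253 to 0.595 log2 units to either side. A difference smaller than the reach of its own interval did not have an unadjusted p under 0.05 in limma. A call after adjustment needed more. Cat (A_51_P191611, 0.47) and Prdx6 (A_55_P2176729, 0.29) exceeded that reach and were not called.

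**Figure D2:**
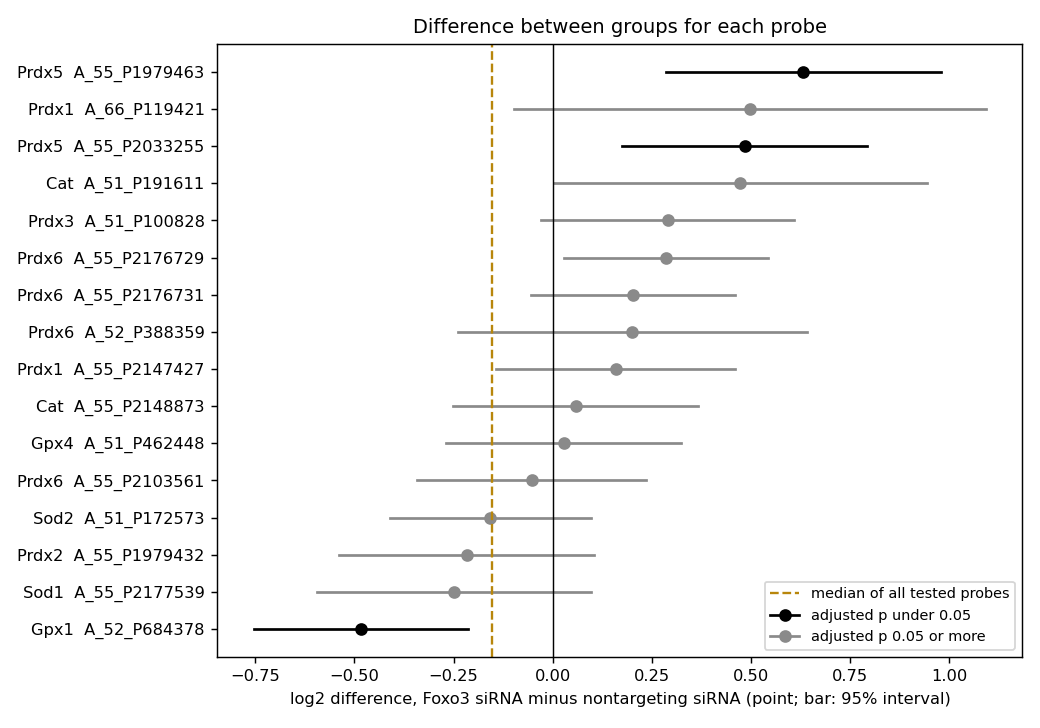
Log2 difference of each probe, Foxo3 siRNA minus nontargeting siRNA (x axis), with its 95% interval from limma; black marks a limma adjusted p under 0.05, grey the rest, and the dashed line the median of all tested probes at −0.15. The intervals of Gpx1 and of both Prdx5 probes lie clear of 0, while those of the Sod, Prdx2 and Gpx4 probes cross it. The intervals of Cat A_51_P191611 and Prdx6 A_55_P2176729 also lie above 0, although neither probe was called after adjustment.

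Superoxide dismutase mRNAs did not pass the test. Sod1 (A_55_P2177539, chr16:90226509-90226568) had scaled log2 signals of 8.02, 7.59 and 7.70 with Foxo3 siRNA, against 8.11, 7.97 and 7.98 with nontargeting siRNA. The groups overlapped, and the difference was −0.25 (SE 0.145, limma adjusted p = 0.223, 95% interval −0.60 to 0.10). Sod2 (A_51_P172573, chr17:13208074-13208133), the mitochondrial enzyme, had 5.63, 5.55 and 5.63 with Foxo3 siRNA, against 5.69, 5.75 and 5.84 with nontargeting siRNA. Every Foxo3 siRNA array lay under every nontargeting array, yet the difference of −0.16 did not pass (SE 0.106, limma adjusted p = 0.282). Under median and spike-in scaling, which move the differences of all probes upward alike, Sod2 gave 0.15 and 0.20 and Sod1 was positive too, so neither has a settled sign.

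Catalase gave 2 readings. On the probe that spans 3343 bases, Cat had 2.45, 2.44 and 2.82 with Foxo3 siRNA, against 1.74, 2.22 and 2.33 with nontargeting siRNA. The groups did not overlap, but the difference of 0.47 did not pass (SE 0.197, limma adjusted p = 0.116). On the probe with the CA run, Cat had 3.85, 3.79 and 3.70 with Foxo3 siRNA, against 3.53, 3.80 and 3.85 with nontargeting siRNA, which overlap, for a difference of 0.06 (limma adjusted p = 0.743). Under median scaling the first of these was called, at 0.78 (limma adjusted p = 0.0448).

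Gpx1 was the only enzyme called lower. Its scaled log2 signals were 8.80, 8.59 and 8.63 with Foxo3 siRNA, against 9.17, 9.21 and 9.09 with nontargeting siRNA. The highest Foxo3 siRNA array lay under the lowest nontargeting array. Gpx1 fell by 0.48 on the log2 scale, to 0.715 of the nontargeting level (SE 0.113, 95% interval −0.75 to −0.21, limma adjusted p = 0.0257). The difference was −0.36 within slide row 1, which holds 1 Foxo3 siRNA array (limma adjusted p = 0.290), and the same with the row as a block (limma adjusted p = 0.199). It was −0.18 under median scaling (limma adjusted p = 0.707) and −0.13 under spike-in scaling (limma adjusted p = 0.969). With each array left out in turn it was −0.55 to −0.44, and the call held only without Foxo3 siRNA replicate 1. The sign stayed negative in all 18 alternatives, and Gpx1 was called in 8 of them. The filters, the brightest probe, kept outlier spots and the replicate block left the difference itself unchanged. Their sign is therefore no separate check. The summed erythroid markers were also lower with Foxo3 siRNA, as given above, and their part in this difference was not tested.

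Gpx4, which reduces lipid peroxides in membranes, was not called. It had 8.56, 8.27 and 8.52 with Foxo3 siRNA, against 8.48, 8.39 and 8.40 with nontargeting siRNA on probe A_51_P462448, for a difference of 0.03 (95% interval −0.27 to 0.32, limma adjusted p = 0.874). Its 3 Foxo3 siRNA arrays lay on both sides of the nontargeting arrays.

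Both probes of Prdx5 were called higher. On A_55_P1979463, Prdx5 had 6.70, 6.31 and 6.61 with Foxo3 siRNA, against 5.93, 6.00 and 5.77 with nontargeting siRNA. On A_55_P2033255 (chr19:6981198-6981256) it had 7.76, 7.42 and 7.53 with Foxo3 siRNA, against 7.12, 7.14 and 7.01 with nontargeting siRNA. Neither probe had overlapping groups, and replicate 2 was the lowest of the Foxo3 siRNA arrays on both. The differences were 0.63 (1.55-fold, SE 0.144, limma adjusted p = 0.0242) and 0.48 (1.40-fold, SE 0.129, limma adjusted p = 0.0379). The probes carry the same gene name, were designed on different transcript records and lie close together on the chromosome, so they were not counted as independent readings.

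The Prdx5 calls were lost in several alternatives. Within slide row 1 the differences were 0.79 and 0.67 (limma adjusted p = 0.108 and 0.122). With the row as a block they were the same size (limma adjusted p = 0.0742 and 0.0632). With each array left out in turn the first probe gave 0.55 to 0.75 and was called only without Foxo3 siRNA replicate 2, and the second gave 0.39 to 0.56 and was called in none of these 6 fits. With the replicate block the second probe also lost its call (limma adjusted p = 0.0542). Both were positive in every alternative run. The filters, kept outlier spots and the replicate block left both differences unchanged, so their sign is no separate check.

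Scaling cancels when probes of the same array are subtracted from each other. The level of one probe cannot be set against that of another, so only the change of such a difference between groups carries meaning. The first Prdx5 probe minus Gpx1 was −2.10, −2.28 and −2.03 with Foxo3 siRNA, against −3.24, −3.20 and −3.32 with nontargeting siRNA, a shift of 1.12 (2.17-fold). The other Prdx5 probe minus Gpx1 was −1.04, −1.17 and −1.10 with Foxo3 siRNA, against −2.05, −2.07 and −2.09 with nontargeting siRNA, a shift of 0.97. The 3 arrays of each group lay within a narrow band on both measures. Gpx4 minus Gpx1 shifted by 0.51, again without overlap. These pairs were chosen after the values were seen, so no test is given; a shift shows that the paired mRNAs changed unequally, not which of them changed.

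Prdx3, the mitochondrial peroxiredoxin, was printed 10 times on each array, which gives the noise between spots. Averaged over its spots, Prdx3 (A_51_P100828, chr19:60940148-60940207) had 5.85, 5.90 and 6.00 with Foxo3 siRNA, against 5.41, 5.70 and 5.76 with nontargeting siRNA. The groups did not overlap, and the difference of 0.29 did not pass (SE 0.133, limma adjusted p = 0.143). The SD between its spots on 1 array was 0.0295 to 0.0515, and 1 spot of Foxo3 siRNA replicate 1 was left out as an outlier. The SD between arrays was 0.0777 with Foxo3 siRNA, against 0.185 with nontargeting siRNA. The spread between arrays, which also holds labelling, hybridisation and scaling error, was larger than the spread between spots in both groups.

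**Figure D3:**
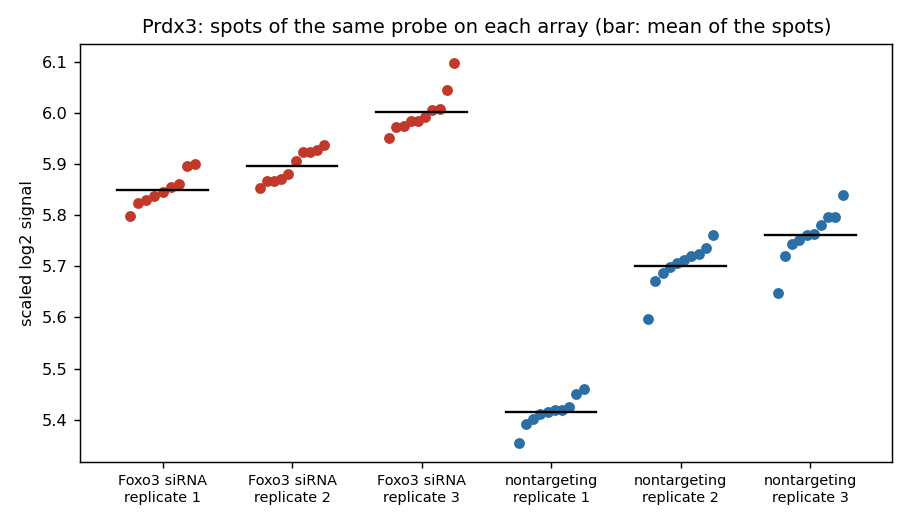
Scaled log2 signal (y axis) of each Prdx3 spot on the 6 arrays (x axis), Foxo3 siRNA left; bars are the mean of the spots. Spots of 1 array cluster tightly, and nontargeting replicate 1 at 5.41 lies below the other 5 arrays.

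Prdx1 and Prdx2, the abundant cytosolic peroxiredoxins, were not called. Prdx1 had 5.31, 5.47 and 5.44 with Foxo3 siRNA, against 5.07, 5.33 and 5.35 with nontargeting siRNA on A_55_P2147427, for a difference of 0.16 (limma adjusted p = 0.352). Its other probe, A_66_P119421, was dim, with −0.92, −0.55 and 0.06 with Foxo3 siRNA, against −1.07, −0.98 and −0.85 with nontargeting siRNA. That difference was 0.50 (SE 0.248, limma adjusted p = 0.169), and only median scaling called it (limma adjusted p = 0.0377). Prdx2, a major red cell peroxiredoxin, was read by probe A_55_P1979432. It had 9.53, 9.25 and 9.32 with Foxo3 siRNA, against 9.74, 9.53 and 9.47 with nontargeting siRNA, for −0.22 (limma adjusted p = 0.247). The Prdx2 groups overlapped, and the upward shift of all probes under median and spike-in scaling made its difference positive.

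Prdx6, which also has phospholipase activity, was read by 4 probes and not called on any. The probe A_55_P2176729 (chr1:163171791-163171850) had 7.79, 7.64 and 7.74 with Foxo3 siRNA, against 7.37, 7.50 and 7.45 with nontargeting siRNA, for 0.29 (SE 0.108, limma adjusted p = 0.0937). A_55_P2176731 (chr1:163173715-163173774) had 7.38, 7.24 and 7.30 with Foxo3 siRNA, against 7.13, 7.16 and 7.02 with nontargeting siRNA, for 0.20 (limma adjusted p = 0.190). Both were free of overlap, whereas A_55_P2103561 (chr1:163171138-163171197) gave −0.05 (limma adjusted p = 0.749) and the dim A_52_P388359 gave 0.20 (limma adjusted p = 0.419), with overlapping groups. Within each array, the first of these probes minus A_55_P2103561 was −0.20, −0.16 and −0.02 with Foxo3 siRNA, against −0.49, −0.33 and −0.57 with nontargeting siRNA. This is a shift of 0.34 with no overlap, for a pair chosen after the values were seen and given no test.

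**Figure D4:**
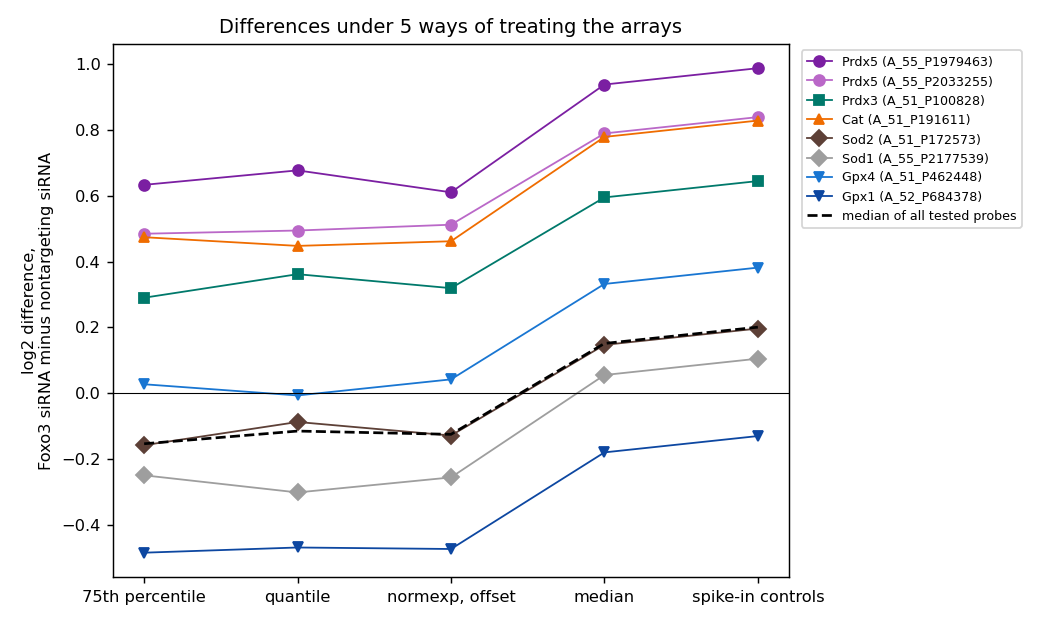
Log2 difference, Foxo3 siRNA minus nontargeting siRNA (y axis), of 8 member probes under 5 ways of treating the arrays (x axis); the dashed line is the median of all tested probes and the lines join the values of 1 probe. The order of the probes barely changes while the level moves, with Gpx1 between −0.48 and −0.13 and the first Prdx5 probe between 0.61 and 0.99.

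The table that the authors deposited was compared for the same spots. In the authors' deposited table, 0 of the 25 member spots had a limma adjusted p under 0.05, against 2.27% of all non-control spots, and 4 had an unadjusted p under 0.05, against 18.2% of all non-control spots. Of those 4 in the authors' deposited table, 3 were higher and 1 was lower. The spots are not separate members: 10 of the 25 repeat the Prdx3 probe. Among the 3 higher was 1 Prdx3 spot (limma unadjusted p = 0.0495). The shares of all spots include dim spots, while every member spot was well above background, so the 2 are not alike. For Gpx1 the authors' deposited table gave −0.46 (adjusted p = 0.189). For the Prdx5 probes the authors' deposited table gave 0.67 and 0.51 (adjusted p = 0.133 and 0.151). These differences had the same signs as those given above, with larger adjusted p-values.

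The 71 genes around these enzymes were read from 6 lists chosen by pathway, with earlier results of these data known. Among 9 relatives of the enzyme families, 4 probes of 3 genes were tested, with 0 higher and 1 lower. Gpx2, a glutathione peroxidase of epithelia, had 2.92, 2.38 and 2.35 with Foxo3 siRNA, against 3.26, 3.31 and 3.44 with nontargeting siRNA, and fell by 0.78 (limma adjusted p = 0.0242). The groups did not overlap. Prdx4, the peroxiredoxin of the endoplasmic reticulum, gave 0.46 (limma adjusted p = 0.0542) and, on a dimmer probe, 0.19 (limma adjusted p = 0.688). Ccs, the copper chaperone of Sod1, gave −0.29 (limma adjusted p = 0.0854).

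The thioredoxin list, which holds the proteins that recycle peroxiredoxins and their relatives, had 6 of its 11 tested probes higher and 1 lower, with a median of 0.58. Of all tested probes, 12.3% were higher and 13.0% lower. Txn1, the cytosolic thioredoxin, had 5.35, 5.48 and 5.48 with Foxo3 siRNA, against 4.69, 4.75 and 4.95 with nontargeting siRNA, a rise of 0.64 (SE 0.119, limma adjusted p = 0.0125). The groups lay apart, but the call was lost with the slide row as a block (0.56, limma adjusted p = 0.116) and within row 1 (limma adjusted p = 0.192). Nucleoredoxin (Nxn) rose by 1.67 on 1 probe (limma adjusted p = 0.00262), and its other probe gave −0.52 (limma adjusted p = 0.0967). Txndc12 rose by 0.80 (limma adjusted p = 0.0141) and Txndc17 rose by 0.58 (limma adjusted p = 0.0184). Txnrd2, the mitochondrial thioredoxin reductase, was the only lower one (−0.63, limma adjusted p = 0.0323), and Srxn1, which restores over-oxidised peroxiredoxins, gave 0.70 (limma adjusted p = 0.0437); these genes were picked after their values were seen.

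The glutathione list was mixed, with 1 of 17 tested probes higher and 3 lower, and a median of −0.12. The 3 lower probes belonged to 2 genes. Slc7a11, the cystine importer, had −3.85, −2.99 and −3.34 with Foxo3 siRNA, against −1.04, −0.47 and −0.34 with nontargeting siRNA. It fell by 2.78 (limma adjusted p = 0.00199), and 2 of the 3 Foxo3 siRNA arrays had it well above background. That size depends on the treatment of background: with normexp correction the difference was −1.58 (limma adjusted p = 0.000236). Ggct, which breaks down gamma-glutamyl peptides, rose by 1.06 (limma adjusted p = 0.00212). Glrx2, a mitochondrial glutaredoxin, fell by 0.53 on its brightest probe (limma adjusted p = 0.0412). Another of its probes gave −0.40 (limma adjusted p = 0.0445), and a dim probe gave −0.21 and was not called (limma adjusted p = 0.400). Gclm, the regulatory subunit of the rate-limiting enzyme of glutathione synthesis, gave −0.33 (limma adjusted p = 0.0785).

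The NADPH list, whose enzymes supply the reducing power for both systems, had 8 of 17 tested probes higher and 2 lower, with a median of 0.49. The shares of all tested probes were 12.3% higher and 13.0% lower. The 8 higher probes belonged to 6 of 14 tested genes, and more than 1 of them read Me1. Me1, the cytosolic malic enzyme, had 1.86, 1.66 and 1.59 with Foxo3 siRNA, against −0.04, 0.32 and 0.08 with nontargeting siRNA. It rose by 1.58 (SE 0.143, limma adjusted p = 0.00155), with no overlap. Pgd and Pgls, of the pentose phosphate pathway, rose by 0.53 and 0.59 (limma adjusted p = 0.0203 and 0.0257). Idh2, the mitochondrial isocitrate dehydrogenase that makes NADPH, fell by 1.04 (limma adjusted p = 0.00460).

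**Figure D5:**
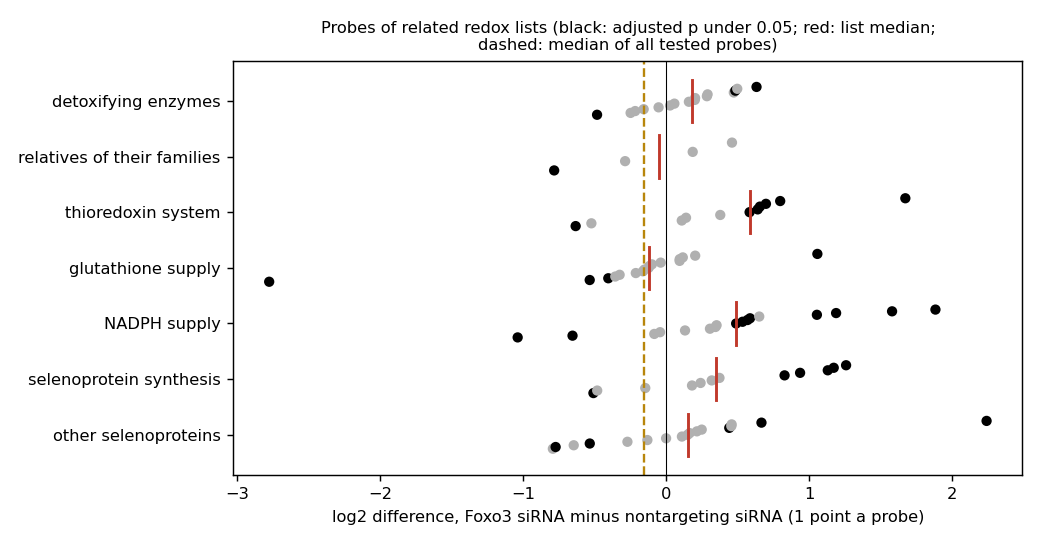
Log2 difference, Foxo3 siRNA minus nontargeting siRNA (x axis), of each tested probe in the 6 related lists and the member list (y axis); black points have a limma adjusted p under 0.05, red marks are list medians and the dashed line is the median of all tested probes, −0.15. The thioredoxin list has a median of 0.58 and the NADPH list 0.49, while the glutathione list has −0.12.

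Gpx1 and Gpx4 contain selenocysteine, so the genes that insert it were read as well. In that list 5 of 12 tested probes were higher and 1 lower, with a median of 0.35. The 5 higher probes belonged to 3 of 9 tested genes, and more than 1 of them read Trnau1ap. Trnau1ap, which binds the selenocysteine tRNA, rose by 1.13 (limma adjusted p = 0.00204). Pstk, the kinase acting on that tRNA, rose by 0.83, and Sephs2, which makes the selenium donor, rose by 0.94 (limma adjusted p = 0.00927 and 0.0210). Secisbp2, which binds the selenocysteine insertion element, fell by 0.51 on 1 probe (limma adjusted p = 0.0490). Its other probe gave −0.15 with overlapping groups (limma adjusted p = 0.420). Among other selenoproteins, 3 of 17 tested probes were higher and 2 lower, with a median of 0.15. Selenoh rose by 2.24 (limma adjusted p = 0.000764), Selenos by 0.67 (limma adjusted p = 0.0336) and Selenot by 0.44 on 1 probe (limma adjusted p = 0.0491). The other Selenot probe gave 0.46 and was not called (limma adjusted p = 0.0795). Dio1 fell by 0.77 (limma adjusted p = 0.0220), and 2 of the 3 Foxo3 siRNA arrays had it well above background. Its other tested probe gave −0.79 and was not called (limma adjusted p = 0.120). Selenoh and Me1 kept their calls in all 18 and 17 alternatives run on them. Slc7a11 was called in the 17 run on it. It entered the test through the nontargeting group alone and could not enter the filter on all 6 arrays, so that filter is no check on it. Nxn was called in 17, Ggct in 16, Txndc12 and Pstk in 14, Txn1 and Idh2 in 13, Txndc17 in 11, Sephs2 in 10, Pgd and Selenos in 9, Gpx2 and Pgls in 8, Glrx2 and Selenot in 7 and Secisbp2 in 6 of 18. Trnau1ap was called in 16 of 17 and Dio1 in 7 of 17, and Dio1 too could not enter the filter on all 6 arrays. None of these named probes changed sign, though some settings, as with Gpx1, could not move a difference. Counts for these lists are descriptions and are read against the 12.3% higher and 13.0% lower of all probes.

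Promoters were searched for letters bound by forkhead factors, the family of the siRNA target, by GATA factors and by antioxidant response factors. Of the GATA factors, estradiol turned on the GATA-1 fusion in both groups. In RefSeq promoters of build GRCm38.p6, taken as the 250 bases upstream of the start site, 9 of the 10 genes had an entry, 12 entries in all. The forkhead letters GTAAACA, on both strands, were in 0 of these entries and in 3.17% of 32851 promoters. The GATA letters AGATAA or TGATAA were in entries of Gpx4 only, against 16.6% of all promoters. The antioxidant letters TGACNNNGC were in entries of Sod1 and Prdx1, against 10.2% of all promoters. A match is a description of the sequence and not of binding, and no match says only that these letters are not in this window. The windows with a match are shown on the plus strand, with the matching letters in capitals, at chr16:90220696-90220725, chr4:116685456-116685485 and chr10:80053408-80053437.
Sod1: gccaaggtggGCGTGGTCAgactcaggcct
Prdx1: cagggaaagcGCTGAGTCAtcccccgtagg
Gpx4: atgcgcagttgcTGATAAcaacaaactcgt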

How the data were processed

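Total RNA of 6 samples was read on 1-colour Agilent arrays. Per the file headers, the spot intensity is the processed signal of Agilent Feature Extraction 10.7.3.1, background-subtracted, with surrogate values for signals not above background. The authors' deposited table holds the same intensity values (largest difference 0) beside a log2 fold change with its p-value, raw and adjusted, for every spot; per the submitters' processing notes these came from limma, and the normalization behind them is not given in the sources used here. The base of 2 follows from regressing it on the signals (slope 0.946, r = 0.993 over 19470 bright spots).

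Control spots (3671 of 62976) were left out, outlier spots were set to missing, and log2 intensity was centred on each array at its 75th percentile before averaging the spots of a probe. A probe entered the test if either group had it well above background on its 3 arrays (27016 of 55681). Groups were compared with limma 3.58.1 in R 4.3.3 (lmFit and eBayes, two-sided, no covariates), with Benjamini-Hochberg adjustment over all kept probes; all adjusted p-values are from it unless credited to the authors. Scripts were tested on simulated data. Signal over background stands in for depth, and the number of arrays limits the precision.

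Every probe of the 10 genes and of Foxo3 is named, as are up to 4 genes of each related list with the smallest adjusted p, with genes of mouse chromosome 18, which count in the lists, not reported here by name. Srxn1, Txnrd2 and the marker genes with values were named after their values were seen. Older array names in the lists were updated through RefSeq. The members and lists were chosen with earlier results of these data known. Same-numbered samples deviated together with correlations of 0.16, −0.31 and 0.11, so replicate numbers were not taken to pair the samples. Alternatives covered scaling, background correction, filters, array weights, slide row, the replicate block and each array left out.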

Additional observations from a re-analysis of the deposited data

How the results depend on the processing

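Gpx1 stayed negative and both Prdx5 probes positive in all alternatives run, with calls in 8 of 18, 8 of 17 and 7 of 18 of them. Several of these, such as the filters and the replicate block, left the differences unchanged and say nothing more about sign. The main counts were 2 member probes higher and 1 lower. Under median scaling they were 4 and 0 (unadjusted p under 0.05 in limma for 6 and 0), without a filter on dim probes 0 and 0 (unadjusted 2 and 1), with the slide row as a block 0 and 0 (unadjusted 2 and 0), on the arrays of row 1 alone 0 and 0 (unadjusted 2 and 0) and under spike-in scaling 0 and 0 (unadjusted 1 and 0). The brightest probe per gene left 1 higher. With the replicate block 1 was higher, and the numbers did not pair the samples. Leaving out each array gave 0 to 1 higher and 0 to 1 lower. The member median was 0.18, and it was 0.48 under median scaling, 0.53 under spike-in scaling and −0.013 with the brightest probe per gene. The related lists had 23 probes higher and 10 lower; without a filter these were 5 and 1, with the row block 10 and 1, on row 1 alone 4 and 1, under spike-in scaling 10 and 1, and under median scaling 1 was lower. Leaving out each array gave 13 to 21 higher and 2 to 5 lower. Over all probes, 3318 higher and 3515 lower became 423 and 211 without a filter, 1113 and 744 with the row block, 508 and 266 on row 1 alone, and 1001 and 244 under spike-in scaling. Median scaling left 1173 lower. Leaving out each array gave 1557 to 2787 higher and 1139 to 3099 lower. The share of calls that were higher was 48.6%, against 77.4% under median scaling, 80.4% under spike-in scaling and 56.7% after quantile normalization. Row 1 alone and leaving out arrays test fewer samples, and no filter tests more probes; other causes were not tested.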
